A study of Mus musculus with 2 samples.

Results

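Transcripts of 9 prostaglandin genes were followed in cultured lung fibroblasts of wild-type C57BL/6 mice, a common inbred strain. The genes were taken by symbol from the 27998 genes listed for the libraries: the cyclooxygenases Ptgs1 and Ptgs2, the terminal synthases Ptges and Ptgis, the carrier Slco2a1, the degrading enzyme Hpgd and the receptors Ptger2, Ptger4 and Ptgfr. All 9 had an entry. The data are 2 droplet single-cell libraries, 1 per group, in which each transcript molecule read from its 3′ end is marked by a unique molecular identifier (UMI). The stimulated library came from fibroblasts treated at passage 3 over 14 days. Its protocol lists 10 µM rosiglitazone (an agonist of the nuclear receptor PPARG), 1 µM SB4315442 and, further, 4 µM rhBMP4, a bone morphogenetic protein, given alone or together, with no label telling which of these the library received. The control library came from vehicle-treated cells of the same lung, which the protocol describes as matched in medium and duration. The protocol text, the same for both samples, names medium with 10% fetal bovine serum, and a supplement, ITS+3 at 1% by volume, as the means of inducing a lipofibroblast-like state, that of the lipid-storing fibroblasts of the alveolar wall. Whether that supplement was in the medium of both libraries is not stated, so its part in a difference between them and that of the agents cannot be told apart.

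Each group is a single library, so the treatment was not tested and no difference below has a replicate check. Intervals are 95% intervals that cover counting error only, and they do not cover variation between cultures or lungs. The stimulated library kept 7468 cells with a median of 15380 UMIs, and the control library 4703 cells with a median of 19634. Of 12 fibroblast markers, 11 in the stimulated and 12 in the control library reached 5 CPM, that is, UMIs scaled to counts per 1000000 of the library total, and the 12 summed to 6052 CPM in the stimulated and 12255 CPM in the control library. Fibroblast-like clusters held 82.5% of stimulated and 80.3% of control cells. The 12 macrophage markers summed to 19.1 CPM in the stimulated library, with 1 of them at 0, and to 741 CPM in the control library, with none at 0. All 12 of these markers were seen in a cluster of 1 stimulated and 149 control cells. It is called the macrophage-marker cluster here, since only 1 of those markers was among its 10 leading genes. The 7 smooth muscle markers summed to 1326 CPM in the stimulated and 4491 CPM in the control library, and the 8 mesothelial markers to 28.8 and 29 CPM in the same order. The mesothelial sums cover differences in both directions, such as folds of 9.69 for Msln and 0.117 for Upk3b. Mesothelial-like cells made up 0.321% of stimulated and 1.21% of control cells. The lists for pericytes, endothelium, epithelium, mast cells, neutrophils, lymphocytes and adipocytes summed to at most 20.4 CPM in either library. The libraries shared 53 cell barcodes of 12714.

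Prostaglandins are short-lived lipid signals made from arachidonic acid, which phospholipases release from membranes. Cyclooxygenases turn it into an unstable intermediate, and terminal synthases turn that into prostaglandin E2, prostacyclin and related products. COX-1, encoded by Ptgs1, is made steadily in many tissues, whereas COX-2, encoded by Ptgs2, is induced by cytokines, growth factors and serum. Prostaglandin E2 is known in lung fibroblasts as a brake on proliferation, contraction and collagen production, acting through receptors that raise cyclic AMP.

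The promoter windows of 3 genes are shown. They set the cyclooxygenase pair side by side, of which Ptgs2 differed strongly between the libraries and Ptgs1 little. Ptges is added because within each library it was highest in the same cluster as Ptgs2. Each window spans 250 bases before to 50 bases after the RefSeq transcript start on GRCm38.p6 and is written 5′ to 3′ on the strand of the gene. The windows are chr1:150099781-150100080 on the plus strand for Ptgs2, chr2:36230176-36230475 on the plus strand for Ptgs1, and chr2:30903248-30903547 on the minus strand for Ptges. Capitals mark matches, on either strand, to any of 10 motifs.
Ptgs2: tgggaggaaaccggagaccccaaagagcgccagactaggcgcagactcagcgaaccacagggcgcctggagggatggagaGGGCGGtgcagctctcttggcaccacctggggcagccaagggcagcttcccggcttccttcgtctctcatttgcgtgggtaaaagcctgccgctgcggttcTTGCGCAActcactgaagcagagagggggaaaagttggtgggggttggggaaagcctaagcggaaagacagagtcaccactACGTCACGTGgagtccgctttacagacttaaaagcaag
Ptgs1: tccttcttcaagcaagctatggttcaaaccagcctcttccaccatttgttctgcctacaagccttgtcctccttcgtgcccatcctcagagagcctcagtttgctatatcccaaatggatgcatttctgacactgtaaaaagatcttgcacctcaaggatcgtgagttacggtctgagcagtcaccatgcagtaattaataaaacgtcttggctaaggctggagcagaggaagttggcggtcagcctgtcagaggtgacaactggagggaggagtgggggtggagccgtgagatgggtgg
Ptges: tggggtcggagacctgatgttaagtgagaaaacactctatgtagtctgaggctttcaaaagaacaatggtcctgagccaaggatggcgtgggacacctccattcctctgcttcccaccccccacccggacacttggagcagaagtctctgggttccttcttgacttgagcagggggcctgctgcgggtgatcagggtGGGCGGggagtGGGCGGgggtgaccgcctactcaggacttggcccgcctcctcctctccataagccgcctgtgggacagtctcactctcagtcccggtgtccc
The Ptgs2 window held GGGCGG, the GC box, and TTGCGCAA, a palindrome read by C/EBP factors. Just after the annotated RefSeq start it held the cyclic AMP response core ACGTCA, which overlaps an E-box, CACGTG, within the last run of capitals. Whether transcription begins at that start in these cells was not tested, so the motifs may lie before or after the true start. Among 32851 mouse promoter windows of the same length, 35.7% held GGGCGG, 0.183% TTGCGCAA, 7.51% ACGTCA and 7.15% CACGTG. The Ptges window held GGGCGG at 2 places. The Ptgs1 window held none of the 10, which says only that those letters are not in this window. The other motifs searched were TATAAA (13.6% of windows), TGANTCA (7.81%), GCGNGGGCG (5.55%), the PPAR direct repeat (0.0396%), the glucocorticoid response palindrome (0.00913%) and the NF-kappaB consensus (4.51%), and none of them was found in the 3 windows. Slco2a1, the carrier, had TATAAA and GGGCGG in its window. A match is a description of the sequence and not evidence of binding. Of the 9 genes, 8 had an entry in the RefSeq promoter table; Ptgis did not.

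The large difference between the libraries was in Ptgs2. Summed over all kept cells, the stimulated library held 1335 Ptgs2 UMIs, or 11.4 CPM, and the control library 5626 UMIs, or 63.5 CPM. The level in the stimulated library was therefore 5.58 times lower (95% interval 5.25 to 5.92). Ptgs1 differed less, with 72.4 CPM in the stimulated and 100 CPM in the control library, 1.38 times lower after stimulation (1.34 to 1.42). Both cyclooxygenase transcripts were thus lower in stimulated cells, the inducible one by far more.

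Because each molecule is counted once by its 3′ end, UMIs of different genes need no division by length, although capture can differ between genes. On the UMI scale Ptgs1 made up 86.4% of cyclooxygenase UMIs in the stimulated library (85.7% to 87.1%) and 61.2% in the control library (60.4% to 62.0%). In every fibroblast-like cluster of at least 50 cells the Ptgs1 share lay between 86.9% and 92.4% in the stimulated library and between 52.4% and 68.6% in the control library. These ranges did not overlap. Cluster 5 of the stimulated library, described further on, had 68.3%.

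The terminal synthases stayed closer. Ptges, which encodes the inducible microsomal prostaglandin E synthase, stood at 46.1 CPM in the stimulated and 32.6 CPM in the control library, a fold of 1.42 (1.35 to 1.48). Ptgis, the prostacyclin synthase, had the highest level of the 9 genes in both libraries, with 210 CPM in the stimulated and 194 CPM in the control library and a fold of 1.09 (1.06 to 1.11). Ptgis shares its locus with a gene model on the opposite strand, and how strand was used in counting is not stated. Of the Ptges and Ptgis UMIs together, Ptges made up 18.0% in the stimulated and 14.4% in the control library.

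Slco2a1, the carrier that takes prostaglandins up into cells for breakdown, was higher after stimulation. It reached 55.3 CPM in the stimulated and 34.6 CPM in the control library, a fold of 1.60 (1.53 to 1.67). Hpgd, the dehydrogenase that inactivates prostaglandins once inside, was almost absent, with 18 UMIs in the stimulated and 8 in the control library. Its fold of 1.70 over all kept cells had an interval of 0.704 to 4.52, so no difference was detectable in that comparison. All 8 control Hpgd UMIs lay in the macrophage-marker cluster, whereas all 18 stimulated ones lay in fibroblast-like cells. Unthinned, Hpgd was seen in 0.195% of stimulated fibroblast-like cells (0.101% to 0.340%). In the control library it was seen in 0 of 3777 such cells (upper limit 0.0976%), so those intervals were apart. In fibroblast-like cells thinned to 5000 UMIs, Hpgd was seen in 0.0659% of stimulated cells (0.0180% to 0.169%). It was seen in 0 of 3684 control ones, which allows a share of up to 0.100%, so at that depth the intervals overlapped.

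Receptor transcripts were scarce in both libraries. Ptgfr, the receptor for prostaglandin F2-alpha, had 460 UMIs (3.93 CPM) in the stimulated and 81 UMIs (0.914 CPM) in the control library, 4.29-fold higher (3.38 to 5.51). Ptger2, the cyclic AMP-raising EP2 receptor for prostaglandin E2, had 73 UMIs (0.623 CPM) in the stimulated and 136 UMIs (1.54 CPM) in the control library, 2.46 times lower (1.84 to 3.32). Ptger4, the EP4 receptor, which also raises cyclic AMP, had 232 UMIs (1.98 CPM) in stimulated and 192 UMIs (2.17 CPM) in control cells, and its fold of 0.913 had an interval that includes 1 (0.751 to 1.11). The order of levels in the stimulated library was Ptgis, Ptgs1, Slco2a1, Ptges, Ptgs2, Ptgfr, Ptger4, Ptger2 and Hpgd. In the control library Ptgs2 came directly after Ptgis and Ptgs1, while Slco2a1 and Ptges were neighbours at 34.6 and 32.6 CPM.

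**Figure D1:**
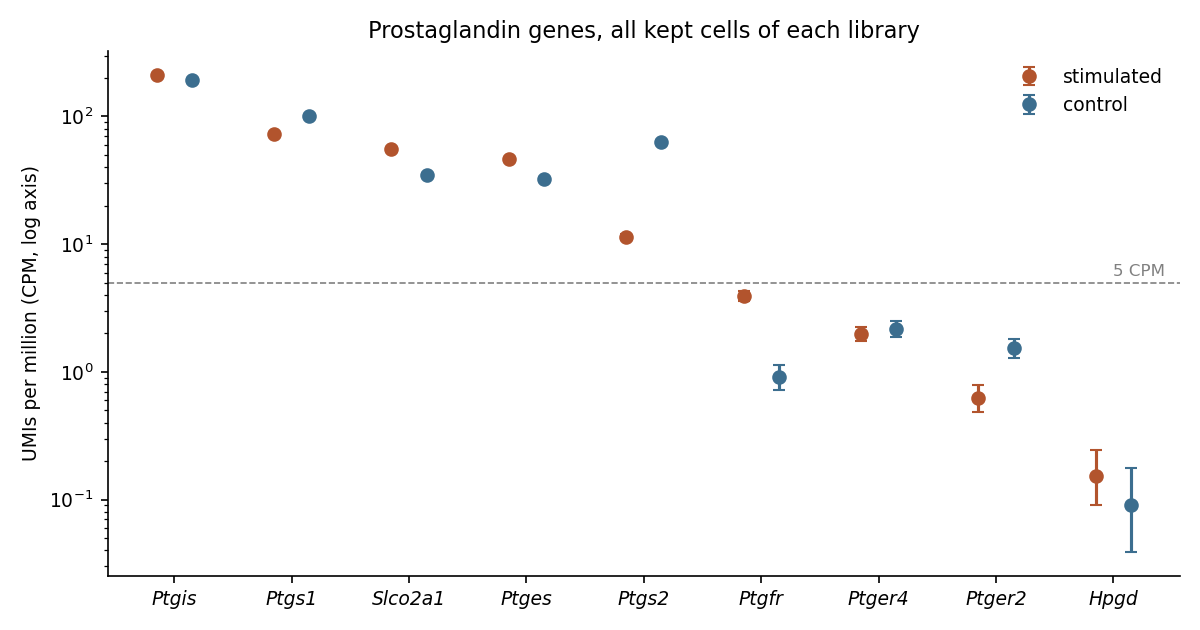
Level of each gene in CPM (log axis) over all kept cells, stimulated left of control, with exact Poisson 95% intervals, which are smaller than the symbols for the abundant genes. Ptgs2 stands at 11.4 CPM in the stimulated and 63.5 CPM in the control library, and 4 genes lie under the dashed 5 CPM line in both.

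At a mean of at least 5 CPM, 5 of the 9 genes could be compared: Ptgs1, Ptgs2, Ptges, Ptgis and Slco2a1. Of these, 1 was at least 1.5-fold higher in the stimulated library (Slco2a1), against 7.75% of all 8787 genes at that level, and 1 was at least 1.5-fold lower (Ptgs2), against 12% of those genes. At 2-fold, 0 of the 5 were higher, against 3.30% of all genes, and 1 was lower, against 5.05%. Among fibroblast-like cells 1 gene was again at least 1.5-fold higher (Slco2a1) and 1 lower (Ptgs2), against 7.98% and 12.6% of 8757 genes. The counts of 1 in 5 each way are too small to set apart from these shares. The median log2 fold of the 5 genes was 0.12, beside -0.06 for all 8787. Ptgfr, Ptger2 and Hpgd also passed 1.5-fold, but at means under 5 CPM, and for Hpgd with an interval that includes 1.

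The share of cells with a UMI followed the levels. After each cell was thinned to 5000 UMIs, Ptgs2 was found in 4.13% of stimulated cells (3.67% to 4.63%) and 21.7% of control cells (20.4% to 23.0%). Without thinning the shares were 9.94% in the stimulated and 42.7% in the control library. Where Ptgs2 was present at 5000 UMIs, a stimulated cell held 1.21 UMIs on average and a control cell 1.51. The mean per positive cell cannot fall below 1 UMI, so at this depth it has little room to differ.

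For most of the other genes the shares at 5000 UMIs kept the order of the levels. Ptgs1 was found in 28.2% of stimulated and 35.0% of control cells. Ptgis was found in 60.4% of stimulated and 52.3% of control cells, and Slco2a1 in 22.1% of stimulated and 14.7% of control cells. For each of Ptgs1, Ptgs2, Ptgis, Slco2a1, Ptger2 and Ptgfr the intervals of the libraries were apart, in the same order, in all 8 combinations of cells and depth that were computed. Ptges did not hold in this way: it was found in 17.4% of stimulated and 13.4% of control cells, but in fibroblast-like cells in 14.6% of stimulated and 14.1% of control cells, with overlapping intervals. Unthinned, the fibroblast-like shares of Ptges were 37.3% in the stimulated and 41.9% in the control library. Hpgd was found in 4 cells of each library, 0.0596% of stimulated and 0.0981% of control cells, with overlapping intervals, and Ptger4 in 0.880% of stimulated and 1.25% of control cells, also overlapping. The unthinned shares over all kept cells were 53.5% of stimulated and 66.7% of control cells for Ptgs1, 84.5% and 75.9% in the same order for Ptgis, and 45.4% and 35.9% for Slco2a1.

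**Figure D2:**
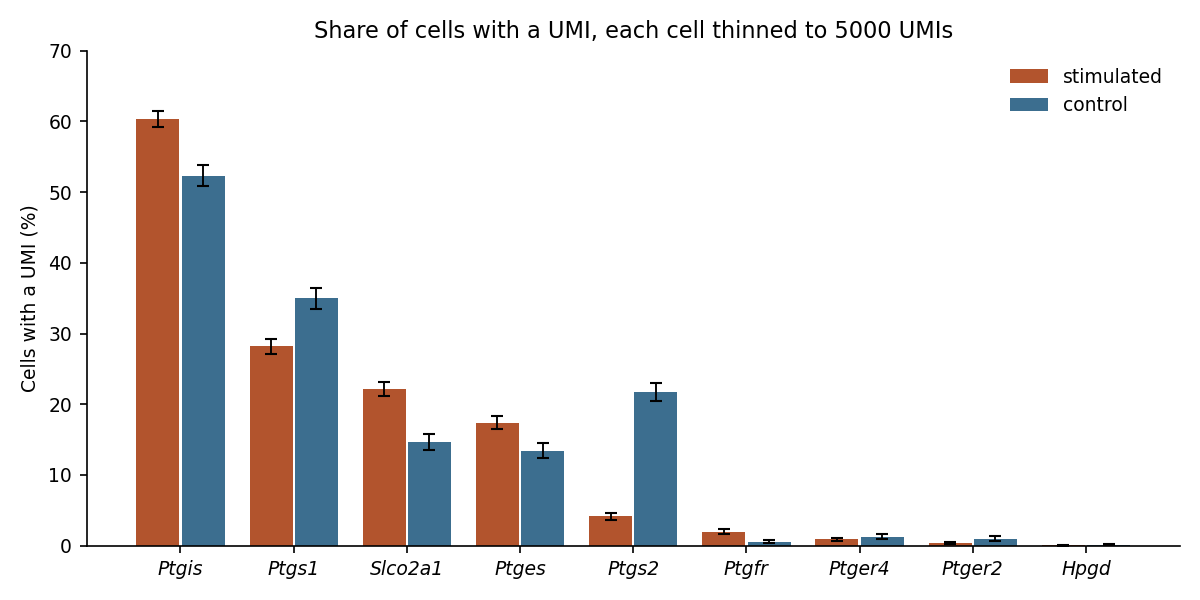
Percent of cells with at least 1 UMI of each gene after each cell was thinned to 5000 UMIs, stimulated left of control, with exact binomial 95% intervals as error bars. Ptgs2 is seen in 4.13% of stimulated and 21.7% of control cells, whereas the 4 scarce genes on the right are seen in at most 2.0% of either library.

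Free RNA in the droplets can set a background for these shares, but it was not measured directly. Doublets and expression by the cells themselves can also add to the shares in another cell type, and these sources were not told apart. In the macrophage-marker cluster, 131 control cells with a median depth of 11405 UMIs before thinning, Ptgis was seen in 20.6%, Ptgs2 in 4.58%, Ptges in 5.34% and Slco2a1 in 6.11% of cells. The control fibroblast-like cells, with a median depth of 21528 UMIs, had 53.6%, 22.8%, 14.1% and 15.5% for the same 4 genes. Each was above the share in the macrophage-marker cluster, with intervals apart. Ptgs1 was seen in 30.5% of the macrophage-marker cluster (22.8% to 39.2%) and in 35.7% of control fibroblast-like cells, and those intervals overlapped. Macrophages are known to express Ptgs1, so for that gene the cluster is a poor measure of background. The stimulated library held too few cells of another type to measure its own background. Its Ptgs2 share in fibroblast-like cells was 3.10%, and the part of free RNA in it was not tested.

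Within each library, Ptgs2, Ptges and Ptger2 were highest in 1 cluster of cells. Clustering was done jointly on both libraries, with the prostaglandin genes and the wider pathway left out of the genes that drove the clustering. Cluster 5 held 555 stimulated cells, 7.43% of that library, and cluster 14 held 338 control cells, 7.19% of that library. Limch1, Fxyd6 and Gzme were among the 10 leading genes of both, and the stimulated cluster that correlated best with cluster 14 was cluster 5 (Pearson r 0.903 across genes, which are not independent replicates). Cluster 14 was fibroblast-like by its markers. Cluster 5 is left unnamed because the smooth muscle marker Des and the mesothelial marker Msln were among its leading genes, although 10 of the 12 fibroblast markers were seen in it.

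In the stimulated library, cluster 5 had 54.9 CPM of Ptgs2, against 5.36 to 10.8 CPM in the 4 fibroblast-like clusters of at least 50 cells. It had 168 CPM of Ptges, against 30.3 to 51.7 CPM in those 4. For Ptger2 it had 5.81 CPM, against 0 to 0.169 CPM. Thus 7.43% of stimulated cells held 39.0% of the Ptgs2 UMIs, 29.5% of the Ptges UMIs and 75.3% of the Ptger2 UMIs of their library.

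In the control library, cluster 14 had 128 CPM of Ptgs2, against 42.7 to 95.7 CPM in the other 3 fibroblast-like clusters. It had 96.7 CPM of Ptges, against 25.8 to 29.3 CPM, and 14.2 CPM of Ptger2, against 0.398 to 0.437 CPM. The cluster held 15% of Ptgs2, 22.2% of Ptges and 69.1% of Ptger2 UMIs of the control library. In both libraries the prostaglandin E synthase and the EP2 receptor were therefore highest in the same cluster, while Ptgs2 was less concentrated in the control library, where the other clusters also carried it.

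Ptgis and Slco2a1 ran the other way. Cluster 5 had 127 CPM of Ptgis, against 190 to 346 CPM in the other stimulated fibroblast-like clusters, and cluster 14 had 70.2 CPM, against 81.4 to 230 CPM in the other control ones. For Slco2a1, cluster 5 had 22 CPM, against 39.1 to 70.8 CPM, and cluster 14 had 11.4 CPM, against 22.6 to 42.0 CPM. As a result Ptges made up 56.9% of the Ptges and Ptgis UMIs in cluster 5, against 9.66% to 21.3% in the other stimulated fibroblast-like clusters. In cluster 14 it made up 57.9%, against 11.3% to 24% in the other control ones.

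Other clusters stood out for single genes. Ptgs1 was highest in control cluster 9, which is led by the small proteoglycan genes Lum and Dcn, at 186 CPM, and next in the control mesothelial-like cells at 162 CPM. Cluster 9 also had 95.7 CPM of Ptgs2, yet its Ptges, 25.8 CPM, was the lowest of the control fibroblast-like clusters. Ptgis was highest in those mesothelial-like cells, 57 cells with 505 CPM, where Ptges was at 7.10 CPM. Of the stimulated clusters, cluster 4 had the highest Ptgis, 346 CPM, and cluster 2 the highest Ptgfr, 6.79 CPM. The cycling clusters, 1 in the stimulated and 8 in the control library, were the lowest of the fibroblast-like clusters in Ptgs2, at 5.36 CPM in cluster 1 and 42.7 CPM in cluster 8.

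**Figure D3:**
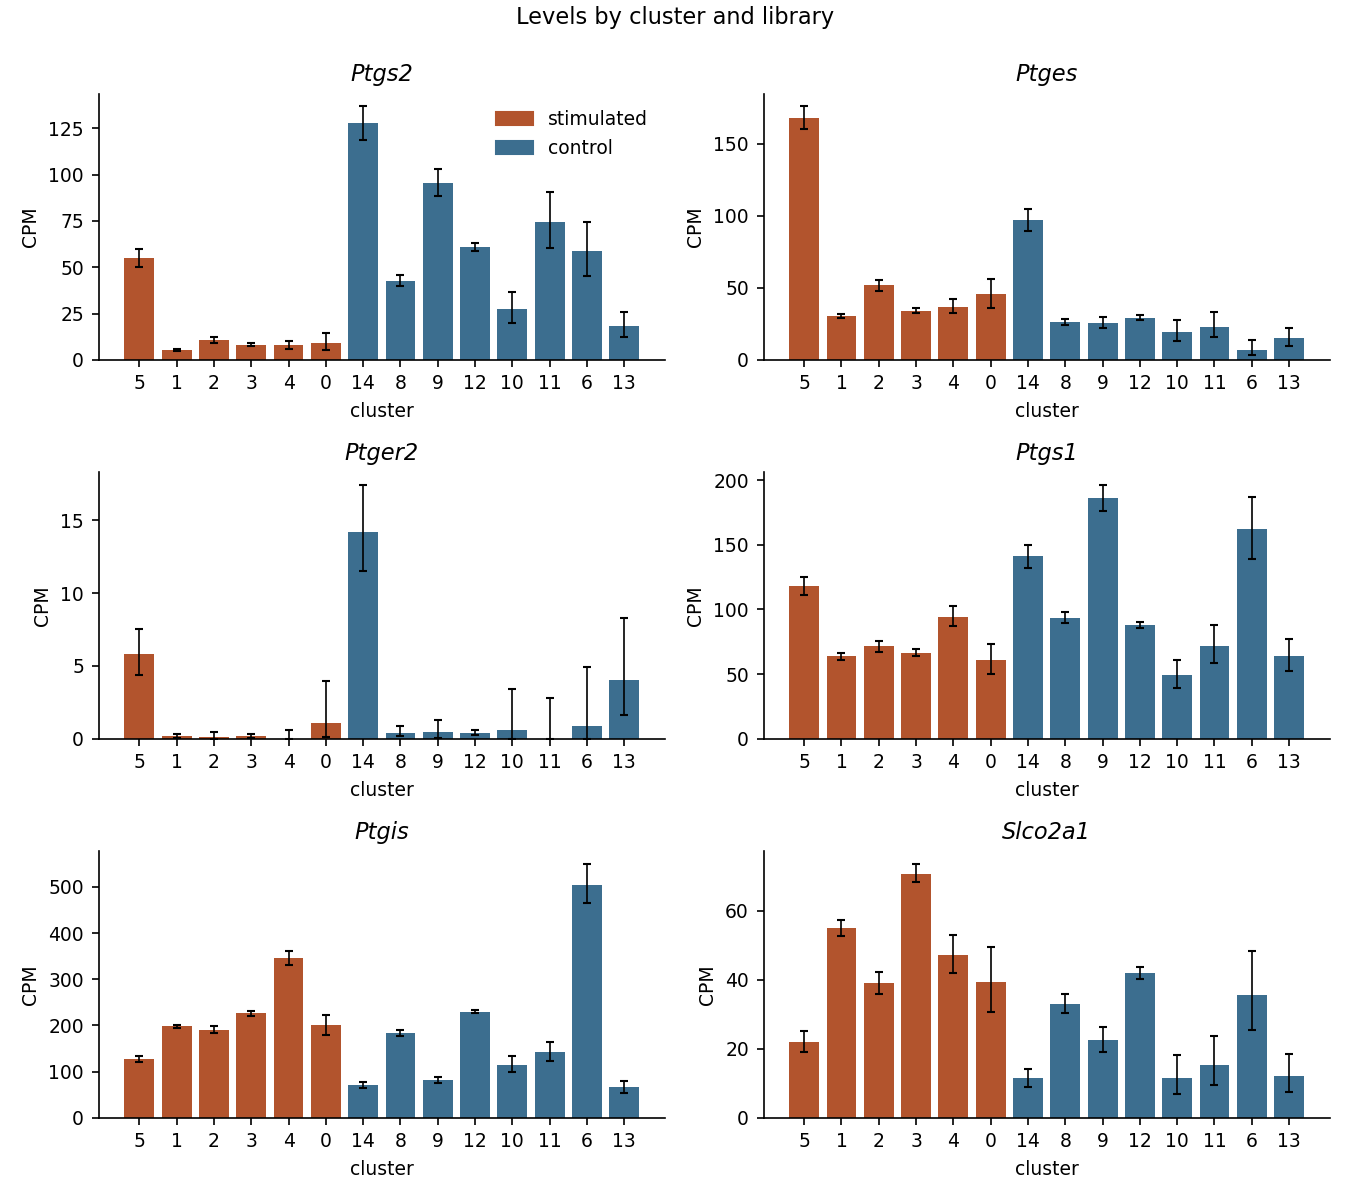
CPM of 6 genes by cluster and library, stimulated clusters left of control ones, for units of at least 50 cells, with exact Poisson 95% intervals. Clusters 5 and 14 have the highest Ptgs2, Ptges and Ptger2 of their libraries and the lowest or near-lowest Slco2a1 and Ptgis; cluster 6 is mesothelial-like, cluster 13 carries macrophage markers, and clusters 0, 10 and 11 are shallow and unnamed.

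The cells compared set some of the folds. Among fibroblast-like cells alone, Ptgs2 was 7.47 CPM in the stimulated and 65.0 CPM in the control library, 8.71 times lower (8.08 to 9.40), and Ptges was 35.3 CPM in the stimulated and 33.7 CPM in the control library, a fold of 1.05 (0.998 to 1.10). That comparison leaves out cluster 5 but includes cluster 14. With cluster 5 added, Ptgs2 was 5.72 times lower and the Ptges fold was 1.37; with cluster 14 left out instead, Ptgs2 was 7.98 times lower and the Ptges fold was 1.25. Ptger2 was 9.95 times lower in fibroblast-like cells (5.89 to 17.9), 2.48 times lower with cluster 5 added and 2.68 times lower without cluster 14. Without the macrophage-marker and mesothelial-like clusters the folds of Ptgs2, Ptges and Slco2a1 were 0.176, 1.39 and 1.58, beside 0.179, 1.42 and 1.60 over all kept cells.

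Set against each other, cluster 5 and cluster 14 showed the same directions as the whole libraries for the 8 genes other than Hpgd, which was at 0 in both, although the intervals of Ptger4 and Ptgfr included 1. Ptgs2 was 2.32 times lower in cluster 5 (2.08 to 2.60), less than over all cells. Ptges was 1.74-fold higher (1.58 to 1.91), Ptgis 1.81-fold higher (1.62 to 2.02) and Slco2a1 1.93-fold higher (1.48 to 2.55). Ptger2 was 2.45 times lower (1.74 to 3.48). Between the cycling clusters, 1 in the stimulated and 8 in the control library, Ptgs2 was 7.97 times lower (6.87 to 9.27) and Slco2a1 1.67-fold higher (1.52 to 1.82), while the Ptges fold was 1.16 (1.04 to 1.29). The lower Ptgs2 and higher Slco2a1 were thus present in both of these pairs. Set instead against cluster 12, the control cluster it correlated with best, cluster 5 had a Ptgs2 fold of 0.898 (0.817 to 0.986), still below 1, and a Slco2a1 fold of 0.523 (0.451 to 0.603), the opposite direction from the whole libraries.

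**Figure D4:**
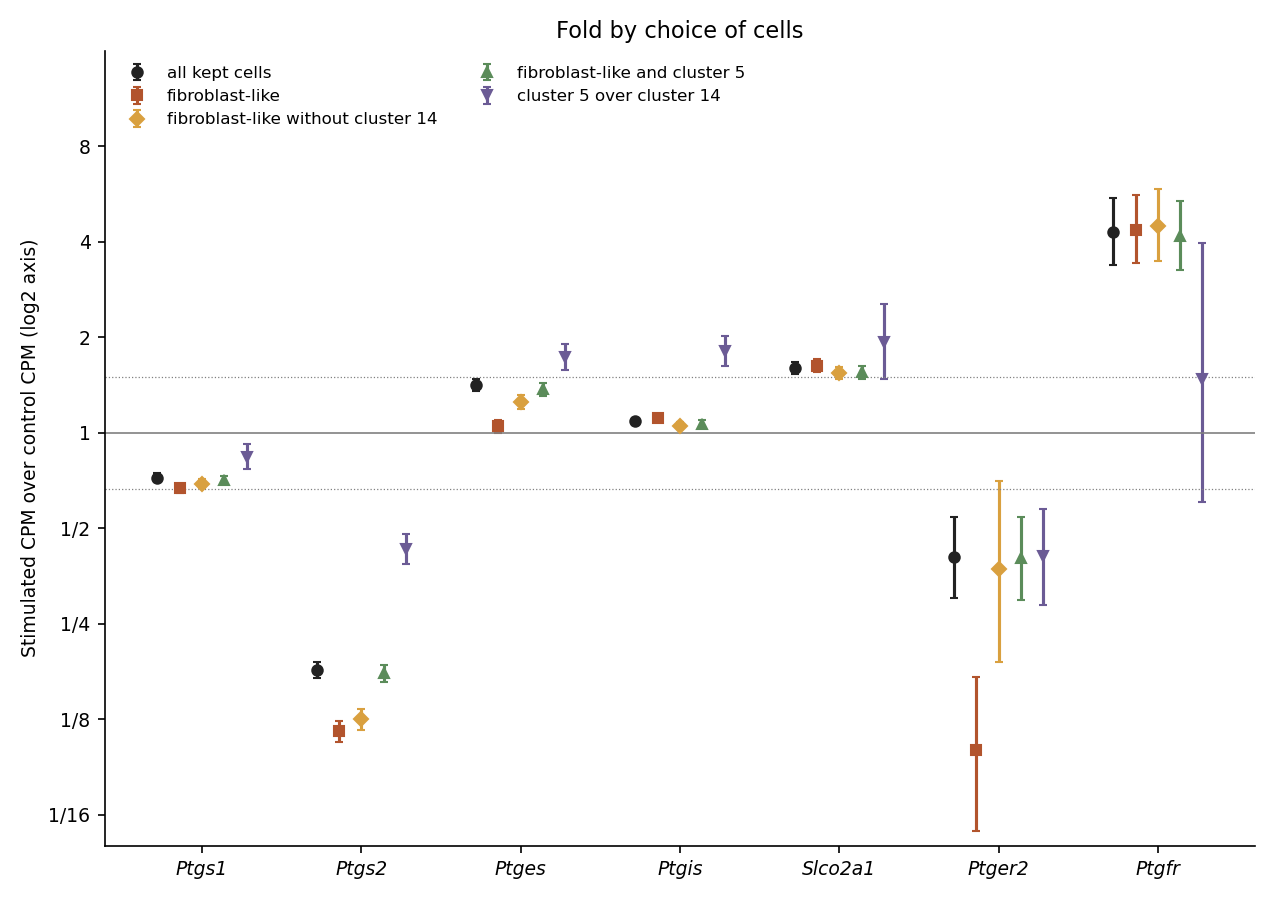
Stimulated over control CPM (log2 axis) of 7 genes under 5 choices of cells, with exact conditional-Poisson 95% intervals; dotted lines mark 1.5-fold either way. Ptgs2 lies below 1 and Slco2a1 above 1 under all 5, and Ptges moves between 1.05 and 1.74. The pair of clusters 5 and 12 is not drawn. In that pair the fold of Slco2a1 was 0.523 and that of Ptges 5.72.

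Cell by cell, Ptgs2 went with Ptges. Among control fibroblast-like cells at 5000 UMIs, Ptges was seen in 19.7% of cells with a Ptgs2 UMI and 12.4% of cells without one. Among stimulated fibroblast-like cells and cluster 5, it was seen in 29.8% of 275 cells with a Ptgs2 UMI and 17.0% of 6342 cells without. Leaving out cluster 5, the stimulated shares were 18.1% and 14.5%, with overlapping intervals. Ptgis went the other way: in control cells it was seen in 46.6% of cells with Ptgs2 and 55.7% without, and in stimulated cells with cluster 5 in 49.5% with Ptgs2 and 60.9% without. Slco2a1 was seen in 12.4% of stimulated cells with Ptgs2 and 22.6% without, and in 14.6% and 15.8% of control cells in the same order. Of the 10 pairs among Ptgs1, Ptgs2, Ptges, Ptgis and Slco2a1, 6 had intervals apart in the stimulated cells with cluster 5 and 2 in the control cells. Cells with and without a gene share clusters, so these shares repeat in part the differences between clusters.

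Across the 14 units of 1 cluster in 1 library, 6 stimulated and 8 control, the levels of 3773 genes were set against each of the 5 abundant genes as log2(CPM + 1). Most like Ptgs2 were Sema3c, a secreted guidance factor, with a Pearson r of 0.97, Jph2, a junctional membrane protein of muscle, with 0.97, and Plxdc2 with 0.96. Most like Ptges were Litaf with 0.90, Cck, a peptide hormone, with 0.89, and the surface protein gene Cd24a with 0.88. Slco2a1 was most like the transcription factor gene Sox9 with 0.89, Sned1 with 0.88 and Aig1 with 0.87. Ptgs1 was most like Flna, an actin crosslinker, and Ddb1, both with 0.87, and the BMP receptor gene Bmpr2 with 0.86. Ptgis was most like Gas1 and Mpg, both with 0.83, and Cpxm1 with 0.82. The units share libraries, depth and cells, and the values describe these 14 points only.

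The wider pathway was read from 7 lists with 119 listed genes, of which 70 reached 5 CPM on average. Of these 70, 10 were at least 1.5-fold higher in the stimulated library and 11 at least 1.5-fold lower, beside 7.75% and 12% of all genes. The median log2 fold of the 70 was 0.10, beside -0.06 for all genes. The same shares and median of all genes stand beside the counts of each list below. Each list is small and was chosen with earlier results known. The counts are a description with no test.

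Upstream, 2 of 11 genes of arachidonate release were higher and 2 lower, with a median log2 fold of -0.02. Pla2g4a, the cytosolic phospholipase that supplies arachidonic acid to cyclooxygenases, was at 10.5 CPM in the stimulated and 36.0 CPM in the control library, 3.42 times lower (3.20 to 3.66). Pla2g16 was also lower, at 8.10 CPM in the stimulated and 23.3 CPM in the control library. Anxa1, a glucocorticoid-responsive protein known to restrain phospholipase activity, was at 511 CPM in the stimulated and 192 CPM in the control library, 2.66-fold higher. Lpcat3, which puts arachidonate back into membranes, was 1.84-fold higher. Pla2g12a, a secreted phospholipase was at 64.2 CPM in the stimulated and 84.8 CPM in the control library.

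In the synthesis list 0 of 10 genes were higher and 3 lower, with a median log2 fold of -0.12. Beside Ptgs2 these were Akr1b3, an aldo-keto reductase that can make prostaglandin F2-alpha, at 50.7 CPM in the stimulated and 83.9 CPM in the control library, and Fam213b, a prostamide and prostaglandin F synthase, at 16 CPM in the stimulated and 30.7 CPM in the control library. Ptges3, a cytosolic prostaglandin E synthase better known as an HSP90 co-chaperone, was at 158 CPM in the stimulated and 172 CPM in the control library. Under a mean of 5 CPM, Akr1c18 of the same list had 655 UMIs in the stimulated and 90 in the control library. It was 5.50-fold higher (4.41 to 6.94). Hpgds, Tbxas1 and Cbr2, also under that level, were lower over all kept cells, with folds of 0.296, 0.142 and 0.148. Of the control UMIs, 84 of 120 for Hpgds and 74 of 149 for Tbxas1 lay in the macrophage-marker cluster. In fibroblast-like cells at 5000 UMIs, Hpgds was seen in 0.181% of stimulated and 0.136% of control cells, with overlapping intervals. Tbxas1 was seen there in 0.181% of stimulated and 0.624% of control cells, with intervals apart. In the transport and breakdown list Slco2a1 was the 1 gene of 8 past 1.5-fold, with none lower and a median of 0.24. The abundant genes beside it there were Slco3a1, another carrier of the same family, at 34.9 CPM in the stimulated and 28.0 CPM in the control library, and the carrier Abcc1, at 21.9 CPM in the stimulated and 24.6 CPM in the control library. Zadh2, a prostaglandin reductase, had a fold of 1.35.

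Of the 10 receptor list genes 2 reached 5 CPM, with a median log2 fold of -0.83. Tbxa2r, the thromboxane receptor, was at 4.80 CPM in the stimulated and 16.3 CPM in the control library, 3.39 times lower (3.07 to 3.74). The other was Ptgfrn, a regulator of the Ptgfr protein, with a fold of 1.07. Below that level, and named after its values were seen, Ptgir, the prostacyclin receptor, had 366 UMIs (3.12 CPM) in the stimulated and 33 UMIs (0.373 CPM) in the control library, 8.38-fold higher (5.86 to 12.4).

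In the cyclic AMP list 2 of 20 genes were higher and 3 lower, with a median log2 fold of 0.02. Per1, a clock gene, was 3.23-fold higher, and Prkar2b, a regulatory subunit of protein kinase A, 1.65-fold higher. Lower were Adcy7, an adenylyl cyclase, at 3.77 CPM in the stimulated and 12.1 CPM in the control library, Pde4b, a phosphodiesterase that breaks cyclic AMP down, at 5.0 CPM in the stimulated and 14.0 CPM in the control library, and Nr4a2, an immediate-early nuclear receptor, 2.15 times lower. The abundant genes of the list lay within 1.5-fold: Gnas, the stimulatory G protein subunit, had a fold of 0.964, Gnai2, the inhibitory one, 0.768, and Prkar1a, a protein kinase A subunit, 0.838.

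In the list of regulators of Ptgs2 and Ptges, 5 of 14 genes were higher and 1 lower, beside 7.75% and 12% of all genes. The median log2 fold was 0.41, beside -0.06 for all genes. Whether the list differs from all genes was not tested. Il1rn, the interleukin 1 receptor antagonist, was at 85.0 CPM in the stimulated and 5.44 CPM in the control library, 15.6-fold higher (14.2 to 17.1). Il1r1, the interleukin 1 receptor, was 2.64-fold higher and its partner Il1rap 2.19-fold higher. Tsc22d3, a glucocorticoid-induced gene, was at 46.5 CPM in the stimulated and 17.8 CPM in the control library, and Egr1, an immediate-early factor known to act on the Ptges promoter, was 1.87-fold higher. Nr3c1, the glucocorticoid receptor, was 1.64 times lower. Factors of the NF-kappaB pathway lay within 1.5-fold: Nfkb1 had a fold of 1.25, Rela of 0.827 and Nfkbia of 1.28. So did the 3 most abundant genes of the list, with folds of 1.41 for Cebpb, a transcription factor, 1.38 for Tnfrsf1a, a tumour necrosis factor receptor, and 1.01 for Elavl1, an RNA-binding protein known to steady the Ptgs2 message.

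In the lipoxygenase and leukotriene list 0 of 5 genes were higher and 1 lower, with a median log2 fold of 0.01. Alox5ap, which hands arachidonic acid to 5-lipoxygenase, was at 1.34 CPM in the stimulated and 14.2 CPM in the control library, but 1044 of its 1255 control UMIs lay in the macrophage-marker cluster. In that cluster at 5000 UMIs it was seen in 85.5% of cells. Mgst1, Mgst3 and Ephx1, detoxifying enzymes and the most abundant of the list, had folds of 1.01, 1.3 and 1.33. Hpgds and Tbxas1, synthases of prostaglandin D2 and thromboxane named after their values were seen, were in 22.9% and 21.4% of its cells.

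**Figure D5:**
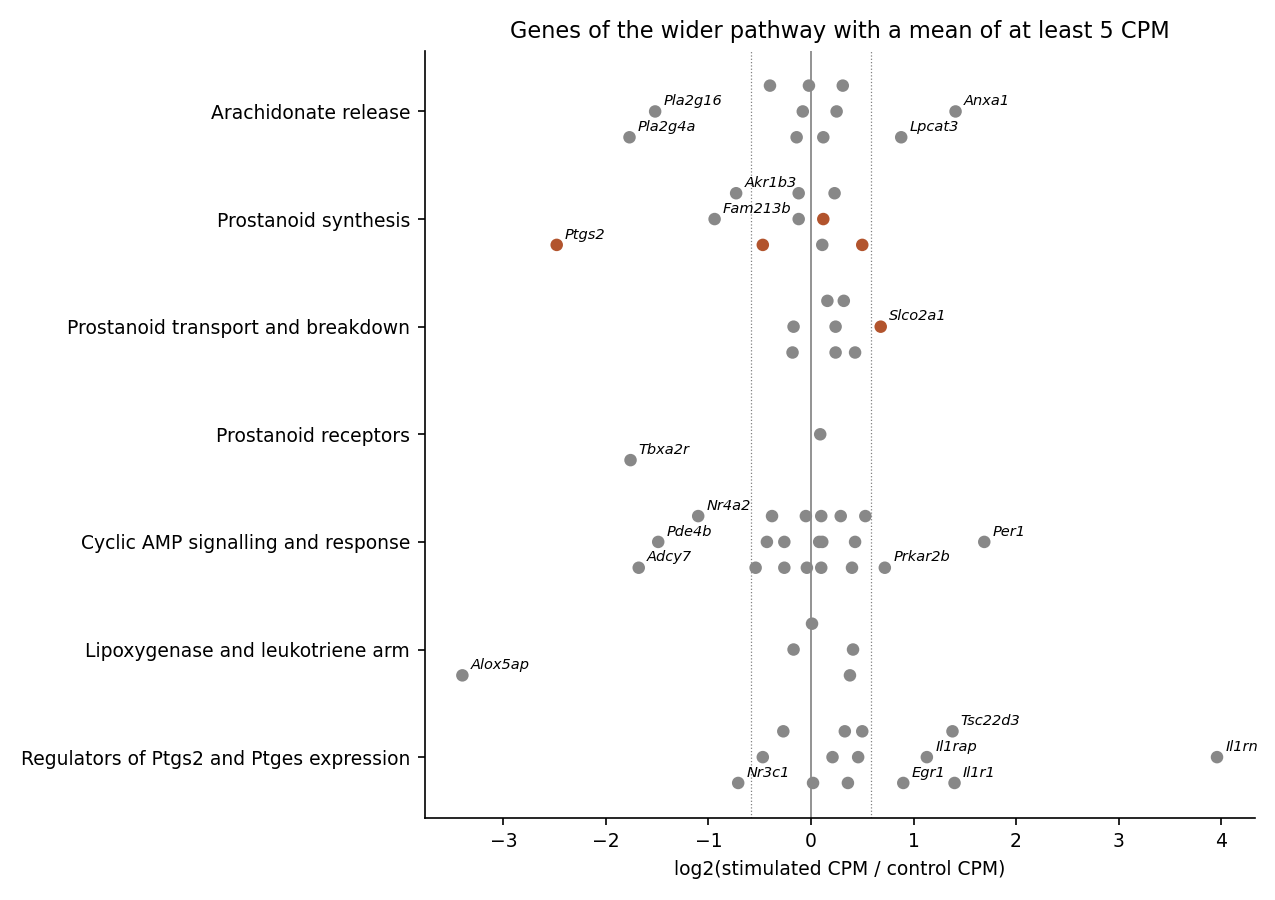
log2 of stimulated over control CPM for the wider pathway genes that averaged 5 CPM or more, by list; coloured points are among the 9 prostaglandin genes, dotted lines mark 1.5-fold, and genes past it are named. Il1rn lies farthest to the right at 3.96 and Alox5ap farthest to the left at -3.40.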

How the data were processed

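Single-cell 3′ RNA libraries of cultured mouse lung fibroblasts were analysed, 1 stimulated and 1 control, grouped by sample title. The authors deposited UMI counts per gene and barcode, not normalized. Cell Ranger 3.0.2 appears in the file headers, whereas Seurat 3.0.0 and Cell Ranger 1.3.1 appear in the submitters' processing notes. Of the build, annotation and strand setting of the counting, nothing is stated: not given in the sources used here. The totals were 117381412 UMIs over 7698 barcodes in the stimulated library and 88876791 over 5016 in the control library.

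Cells with at least 500 genes and at most 20% mitochondrial UMIs were kept. Scrublet marked 0 stimulated cells and 1 control cell, which is too few for a working caller, so doublets remain. Counts were summed per library and divided by the library total. Folds have exact conditional-Poisson 95% intervals, levels exact Poisson and shares exact binomial (Clopper-Pearson) ones. A library at 0 UMIs was set at 3 counts, and genes at or under 3 UMIs in both got no fold. No p-value was computed. Genes were compared at 1.5-fold where the mean of the libraries reached 5 CPM.

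Cells were clustered with scanpy 1.11.5 in Python 3.11.15 on 2000 variable genes (without the prostaglandin and pathway genes), 30 components, 15 neighbours and Leiden resolution 0.5. A cluster took the name of another type when 3 or more of its markers were each present in 25% or more of the cells and 2 or more stood in its 10 leading genes. The name fibroblast-like needed 3 or more fibroblast markers present, unless more markers of another type led it. Clusters with a median depth under that of their library divided by 3, and no marker of the type among the leading genes, stayed unnamed. The ranking of leading genes, among genes of at least 100 CPM, was settled after a first clustering. Cluster 7, with 44 stimulated cells, fell under the 50 cells needed for a level. For shares, each cell was thinned to 5000 UMIs, drawn without replacement. On simulated libraries the fold interval covered the true fold of 96.0% of 200 changed genes among 8763. The simulated counts were drawn as Poisson counts, the assumption behind the interval, so such coverage was built in. It shows that the calculation ran as intended. Whether the intervals hold for the real counts, with their spread between cells and cultures, was not tested.

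The 3′ ends of the 9 genes, checked with minimap2 2.31 in 90 nt windows of GENCODE M21 transcripts, had 0 windows shared with other listed genes. Ptgis, Ptger2 and Ptger4 overlap an opposite-strand gene there. Promoters are from RefSeq.

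The 9 genes, the pathway and marker lists and the motifs were chosen with earlier results of these data known. Named genes were the 9, the 3 most abundant and the 3 with the largest fold of each pathway list at 5 CPM, the 3 most like each abundant gene, and the markers. Other genes past 1.5-fold in a list, the NF-kappaB genes, Hpgds, Tbxas1, Akr1c18, Cbr2 and Ptgir were named after their values were seen. Of the listed pathway genes 2 were not analysed here. Alternatives changed the cells kept, the scaling (TMM from edgeR 4.0.16 in R 4.3.3), the filter, the fold threshold, the depth and the clusters compared. The comparisons with cluster 5 added, without cluster 14 and between clusters 5 and 14 were chosen after seeing the data.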

Additional observations from a re-analysis of the deposited data

How the results depend on the processing

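Each library is 1 culture, so whether the folds would recur in other cultures was not tested, and depth limits Hpgd, Ptger2, Ptger4 and Ptgfr. Over the 13 choices of cells, scaling and depth, the fold stayed below 1 for Ptgs1 (0.668 to 0.777), Ptgs2 (0.115 to 0.201), Ptger2 (0.100 to 0.470) and Ptger4 (0.664 to 0.982), and above 1 for Ptges (1.05 to 1.53), Ptgis (1.05 to 1.17), Slco2a1 (1.54 to 1.72) and Ptgfr (3.57 to 5.33). These choices reuse the same counts. In fibroblast-like cells the intervals of Ptger4 (0.776 to 1.16) and Ptges (0.998 to 1.10) included 1. Thinned to 5000 UMIs, that of Ptger4 lay below 1 (0.451 to 0.979). Hpgd gets no range, since several choices left 0 control UMIs. Cluster 5 against cluster 12, the reciprocal best match by correlation, was the exception among pairs of clusters: the fold of Slco2a1 reversed to 0.523, that of Ptgs1 was 1.35, Ptgis 0.552, Ptger2 14.6 and Ptges 5.72, while Ptgs2 was 0.898; the cause was not tested. TMM moved the median log2 fold of all genes by 0.104, and leaving out mitochondrial and ribosomal protein genes moved it by 0.041. The number of the 9 genes at least 1.5-fold higher, 1, became 2 with TMM and 2 in cells not in cycle (Ptges, at 1.52 and 1.53), 3 with no filter on level (adding Ptgfr and Hpgd) and 0 at 2-fold. The number lower, 1, became 2 with no filter. Of the pathway genes, the 10 higher became 23 with no filter and 6 at 2-fold, and the 11 lower became 25 with no filter and 3 at a mean of at least 25 CPM. At 2-fold, 3.30% of all genes were higher and 5.05% lower. For TMM, cells not in cycle, no filter and 25 CPM no share over all genes was computed. The counts at those settings therefore cannot be read as a result about these genes. The control cells came from the same lung as the stimulated ones, but with 1 library per group no paired analysis was possible. The labels carry no replicate numbers.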
